A study of Mus musculus with 8 samples.

Results

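The 10 genes of the inflammasome sensors and their path to interleukin-18 described here were taken by name from the deposited expression table of 49585 gene identifiers, and all 10 were found and passed the filter on low values. They are the sensors Nlrp6, Nlrc4, Naip1, Naip2, Naip5 and Naip6, the adaptor Pycard, the caspases Casp1 and Casp4, and the cytokine Il18. The rule lists them by name and function and holds no measured value, but they were chosen with earlier results of these data known. Inflammasomes are protein platforms that form in the cytosol when a sensor meets a microbial product or a sign of damage. The sensor recruits caspase-1, often through the adaptor ASC, and the protease then cleaves the precursors of interleukin-18 and interleukin-1β and opens gasdermin pores. In the gut, epithelial cells hold much of this machinery and keep a store of interleukin-18 precursor.

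RNA from the intestine of 8 mice of the strain C57BL/6 was sequenced. There were 4 Klebsiella recipients and 4 Lactobacillus recipients, each a separate mouse with its own library, and a library carries here its group and its labelled mouse number. No untreated group is among these 8 libraries, so each difference is between recipients of either genus. The sources used here do not say what the mice were given beyond these names, how long before, their age or the gut segment.

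The authors' read filter left 40455910 to 55447220 reads in a library. Levels are in FPKM, read counts scaled by gene length and library size, as the authors deposited them. Transcripts known from colon were abundant, with the carbonic anhydrase gene Car1 at 195 to 2947 FPKM. The small-intestinal genes Fabp1 and Lct reached at most 0.44 and 0.14 FPKM, and Apoa4 and Defa24 at most 0.035 and 0.146 FPKM. The small-intestinal genes Slc10a2 and Alpi were higher, most of all in Klebsiella replicate 3 and Lactobacillus replicate 2. Slc10a2 was at 6.09 and 6.00 FPKM in these libraries, and Alpi at 5.35 and 3.18 FPKM. The 8 epithelial markers summed to 6704 to 8963 FPKM in Klebsiella libraries and 6066 to 8154 FPKM in Lactobacillus libraries. In whole tissue, fewer cells of a type and less RNA per cell cannot be told apart.

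The 4 Naip genes stand side by side on mouse chromosome 13 and encode the receptors that bind bacterial proteins and then activate Nlrc4. In mice Naip5 and Naip6 bind flagellin, and Naip1 and Naip2 bind the needle and the inner rod of type III secretion systems. Their promoters are shown as RefSeq sequence on GRCm38.p6, all on the minus strand. Each runs from 250 bases before the annotated start to 50 after it. No link between promoter sequence and level was tested. Capitals mark runs of at least 12 bases that also occur in another of the 4 promoters.
Naip1 (chr13:100452815-100453114): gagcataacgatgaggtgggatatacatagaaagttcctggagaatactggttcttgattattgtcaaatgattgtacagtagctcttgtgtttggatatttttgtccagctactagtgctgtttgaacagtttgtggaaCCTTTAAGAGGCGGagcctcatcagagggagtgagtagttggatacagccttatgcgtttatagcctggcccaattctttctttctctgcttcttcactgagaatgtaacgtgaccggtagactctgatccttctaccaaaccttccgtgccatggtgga
Naip2 (chr13:100202073-100202372): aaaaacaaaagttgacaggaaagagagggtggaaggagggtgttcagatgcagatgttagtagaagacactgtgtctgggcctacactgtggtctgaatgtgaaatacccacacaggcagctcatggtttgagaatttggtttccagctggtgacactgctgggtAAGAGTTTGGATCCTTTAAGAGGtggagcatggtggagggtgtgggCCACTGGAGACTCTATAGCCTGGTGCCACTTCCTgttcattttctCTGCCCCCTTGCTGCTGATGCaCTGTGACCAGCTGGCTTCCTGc
Naip5 (chr13:100247287-100247586): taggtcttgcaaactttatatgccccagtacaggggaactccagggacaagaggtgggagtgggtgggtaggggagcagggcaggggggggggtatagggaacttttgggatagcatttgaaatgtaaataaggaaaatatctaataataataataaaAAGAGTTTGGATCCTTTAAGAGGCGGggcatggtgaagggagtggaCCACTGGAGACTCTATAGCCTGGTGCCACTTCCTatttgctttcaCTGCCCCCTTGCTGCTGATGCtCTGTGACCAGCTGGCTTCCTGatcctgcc
Naip6 (chr13:100316567-100316866): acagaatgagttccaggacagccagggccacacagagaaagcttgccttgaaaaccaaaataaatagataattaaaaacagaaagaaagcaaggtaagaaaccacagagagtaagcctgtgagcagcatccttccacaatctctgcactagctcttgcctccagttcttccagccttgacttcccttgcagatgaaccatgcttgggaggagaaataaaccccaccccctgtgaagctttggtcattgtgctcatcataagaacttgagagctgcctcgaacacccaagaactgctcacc

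Naip2 and Naip5 shared 99 and 102 bases in such runs, and their promoters were 61.8% identical over the alignment. Their longest common run was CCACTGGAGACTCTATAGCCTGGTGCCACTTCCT, 34 bases long, which began at position -39 in Naip2 and -46 in Naip5 counted from the start site, and was in 0 of 32847 other promoters. Naip1 shared 14 bases in 1 such run, which is also in Naip5. The run common to Naip1, Naip2 and Naip5 was CCTTTAAGAGG, 11 bases at positions -110, -73 and -80, which 27 of 32847 other promoters also held on either strand. The Naip6 window shared no run of this length. The RefSeq starts of Naip5 and Naip6 lie 1013 and 1058 bases from the GENCODE starts, so for these genes the window depends on the annotation used.

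Motifs of interferon and myeloid transcription factors were searched on both strands in the 11 promoters of the 10 genes, since Casp4 has 2, which overlap. The interferon response core, GAAA repeated after a gap of 2 bases, was in 0 of 11, against 3.44% of 32851 promoters. The composite of ETS and IRF factors, GGAA and GAAA with the same gap, which can overlap it, was in 0 of 11, against 2.72%. The STAT element TTCNNNGAA was in 0 of 11, against 8.3%. The PU.1 core GAGGAAG was in 1 of 11, that of Pycard at position -43, against 13.6%. TATAAA was in 3 of 11, those of Naip1 at position -53, Naip5 at -236 and Il18 at -175, against 13.6%. The RefSeq start of Il18 lies 127 bases from the GENCODE start. A match or its absence concerns these letters in these windows only.

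Il18, Casp1 and Nlrp6 were the most abundant transcripts per length of the 10, and Nlrc4 the least abundant as deposited. Mean levels over the 8 libraries were 118 ± 44.5 FPKM for Il18, 88.5 ± 14.3 for Casp1 and 69.2 ± 21.4 for Nlrp6 (SD, n = 8). They were 31.6 ± 8.52 FPKM for Pycard, 27.1 ± 6.81 for Naip1, 22.95 ± 6.75 for Naip6 and 22.6 ± 5.42 for Casp4. They were 17.8 ± 2.67 FPKM for Naip2, 13.2 ± 1.85 for Naip5 and 10.9 ± 1.80 for Nlrc4.

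Only some neighbours in this order were apart in every library. Nlrp6 was above Pycard, and Naip2 above Naip5, in 8 of 8 libraries. Casp1 was above Nlrp6, and Naip1 above Naip6, in 7 of 8. Il18 was above Casp1 in 6 of 8 and Casp4 above Naip2 in 6 of 8. Pycard was above Naip1, and Naip5 above Nlrc4, in 5 of 8, and Naip6 above Casp4 in 4 of 8, so these pairs were not apart beyond their spread.

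**Figure D1:**
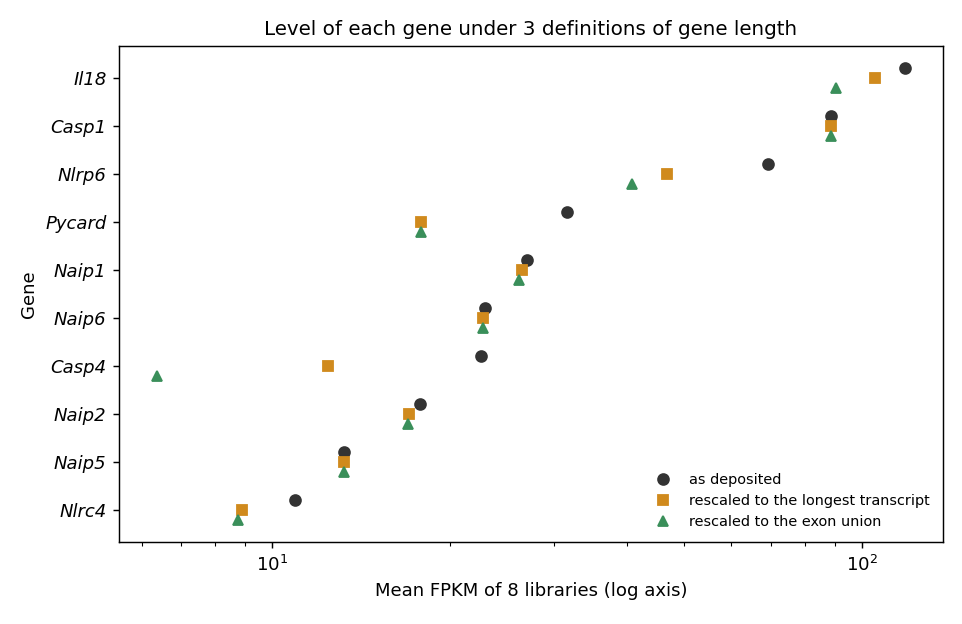
Mean FPKM of the 8 libraries on a log axis for each of the 10 genes, as deposited and rescaled to the longest annotated transcript or to the union of exons. Il18, Casp1 and Nlrp6 stay on top under all 3 definitions, while Pycard and Casp4 move down.

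Part of this order rests on how gene length was set. The lengths implied by the FPKM values equalled the mean length of a gene's annotated transcripts, within 0.2%, for 78.1% of 16626 genes with several transcripts, and for 8 of the 10 genes here, Nlrc4 and Naip1 being the exceptions. The union of exons fitted 0.505% of those genes and the longest transcript 3.04%. Pycard was scaled by 2147 bases, the mean of transcripts of 493 and 3800 bases, and Casp4 by 1043 bases, the mean of 7 transcripts of 361 to 1901 bases. Per kilobase of exon union, Casp4 averaged 6.36 FPKM in place of 22.6, and was then the lowest of the 10. Pycard averaged 17.9 FPKM in place of 31.6, below Naip1 and Naip6. The length is the same in every library, so comparisons between groups of 1 gene are not touched.

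The group comparison asks whether the transcripts of the machinery differed between the recipients. At an adjusted p under 0.05, 0 of the 10 genes were called with limma, a linear model fitted to log2(FPKM + 0.5) of all genes, beside 0% of the 16865 genes tested. At an unadjusted p under 0.05 there were 0 of 10, beside 6.07% of all genes, of which those lower in Klebsiella recipients were 3.52%, and with voom on recovered reads again 0 were called and 0 of 10 passed unadjusted. Every member overlapped between the groups, beside 2.99% of all genes that did not overlap, and 1.80% that did not overlap and were lower in Klebsiella recipients. In Klebsiella recipients 9 of the 10 log2 differences were below 0 and 1, that of Nlrc4, was above it, with a median of -0.26; over all genes 53.6% were below 0 and the median was -0.017. The members share libraries and move together, so these 9 are not separate observations.

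**Figure D2:**
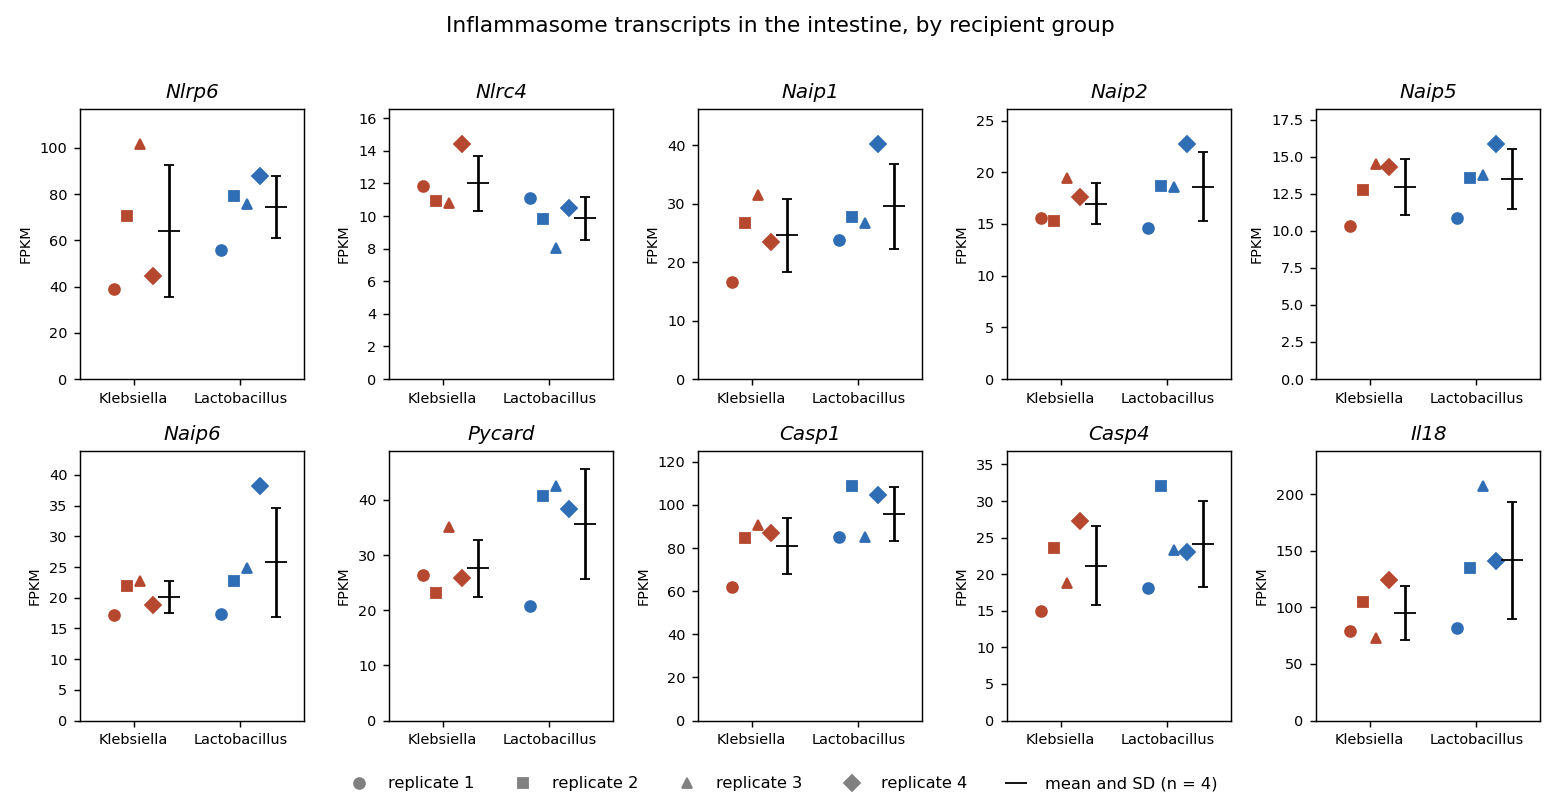
FPKM of each of the 10 genes by library, with Klebsiella recipients left of Lactobacillus recipients, the marker shape giving the mouse number and the black bar the mean and SD of 4 libraries. The groups overlap in every panel, and Klebsiella replicate 1 is the lowest library in 6 panels.

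Nlrp6 (chr7:140920902-140929192, plus strand; positions are GENCODE M21 on GRCm38), a sensor of the gut epithelium that acts in mucus secretion by goblet cells and in antiviral defence, varied most among the sensors. Its level was 39.0, 70.6, 102 and 44.6 FPKM in Klebsiella replicates 1 to 4, against 55.8, 79.1, 75.5 and 87.6 FPKM in Lactobacillus replicates 1 to 4. The highest and the lowest of the 8 libraries were thus both Klebsiella recipients, and the SD was 28.6 FPKM in Klebsiella and 13.5 FPKM in Lactobacillus recipients. The log2 difference was -0.30 (SE 0.29, 95% interval -0.96 to 0.35, limma adjusted p 0.823; two-sided exact permutation p 0.4). It was -0.10 without Klebsiella replicate 1, -0.56 without Klebsiella replicate 3 and -0.88 with log2 Hoxd13, a homeobox gene that marks the hindgut's end, as a covariate (limma adjusted p 0.466), and -0.17 without Klebsiella replicate 4. Hoxd13 was itself lower in Klebsiella recipients on average, at 46.3, 3.25, 2.20 and 8.03 FPKM in Klebsiella replicates 1 to 4, against 43.9, 19.1, 27.3 and 39.2 FPKM in Lactobacillus replicates 1 to 4 (log2 difference -1.97, limma unadjusted p 0.0343, adjusted p 0.774). The covariate is thus tied to the group, and values with it cannot separate gut position from recipient.

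The libraries with high Hoxb6, a homeobox gene of gut position, were Klebsiella replicate 3 and Lactobacillus replicate 2, which held 102 and 79.1 FPKM of Nlrp6. Without them its log2 difference was -0.52. Car1, which also varies along the colon, had a Pearson r of 0.80 with Nlrp6 over the 8 libraries. Their part in the result was not tested beyond these values.

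Nlrc4 (chr17:74425438-74459142, minus strand), the scaffold that Naip proteins activate, was the member with a positive difference. Its level was 11.9, 10.9, 10.8 and 14.4 FPKM in Klebsiella replicates 1 to 4, against 11.1, 9.84, 8.06 and 10.5 FPKM in Lactobacillus replicates 1 to 4. Klebsiella replicate 4 was the highest and Lactobacillus replicate 3 the lowest library, and the other 6 lay between 9.84 and 11.9 FPKM. The log2 difference was 0.27 (SE 0.14, 95% interval -0.039 to 0.58, limma adjusted p 0.774; two-sided exact permutation p 0.0857). A Klebsiella library was below a Lactobacillus library in 2 of the 16 pairs.

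The neutrophil genes S100a8 and S100a9 were also highest in Klebsiella replicate 4, at 8.32 and 9.16 FPKM, against at most 1.85 and 1.596 FPKM in the other libraries. The neutrophil marker Cxcr2 was at 0.613 FPKM there and at most 0.0768 FPKM elsewhere. The neutrophil enzymes Mpo and Elane were at most 0.146 and 0.0689 FPKM in any library. The 6 neutrophil markers summed to 37.7 to 83.8 FPKM in Klebsiella libraries and 47.4 to 179 FPKM in Lactobacillus libraries. That sum was mostly Ly6g, at 178 FPKM in Lactobacillus replicate 4. The mean log2 level of these markers had a Pearson r over 8 libraries of 0.795 with Nlrc4. Single markers had r of 0.84 for S100a9, 0.70 for S100a8 and -0.079 for Ly6g. Without Klebsiella replicate 4 the log2 difference of Nlrc4 was 0.18, and the part of these cells in it was not tested further.

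The 4 Naip genes (Naip2 chr13:100144063-100202092, Naip5 chr13:100211739-100246323, Naip6 chr13:100281121-100317674 and Naip1 chr13:100407764-100452869, minus strand) shared their highest library, Lactobacillus replicate 4. Naip1 measured 16.6, 26.7, 31.4 and 23.5 FPKM in Klebsiella replicates 1 to 4, against 23.8, 27.8, 26.6 and 40.1 FPKM in Lactobacillus replicates 1 to 4. Naip6 measured 17.2, 21.9, 22.7 and 18.8 FPKM in Klebsiella replicates 1 to 4, against 17.4, 22.7, 24.8 and 38.2 FPKM in Lactobacillus replicates 1 to 4. Lactobacillus replicate 4 stood high for both genes. Klebsiella replicate 1 stood low for Naip1, while for Naip6 it lay beside Lactobacillus replicate 1.

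Naip2 and Naip5 varied less. Naip2 measured 15.5, 15.3, 19.4 and 17.6 FPKM in Klebsiella replicates 1 to 4, against 14.6, 18.7, 18.5 and 22.7 FPKM in Lactobacillus replicates 1 to 4. Naip5 measured 10.3, 12.7, 14.5 and 14.3 FPKM in Klebsiella replicates 1 to 4, against 10.9, 13.6, 13.8 and 15.8 FPKM in Lactobacillus replicates 1 to 4. Their highest library was 1.56 and 1.53 times the lowest, against 2.42 times for Naip1 and 2.22 times for Naip6.

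The log2 difference was -0.27 for Naip1 (SE 0.22) and -0.30 for Naip6 (SE 0.22), with limma adjusted p of 0.799 and 0.787. It was -0.12 for Naip2 (SE 0.14) and -0.057 for Naip5 (SE 0.15), with limma adjusted p of 0.860 and 0.947. The 95% interval ran from -0.39 to 0.28 for Naip5 and from -0.44 to 0.20 for Naip2, and from -0.76 to 0.22 for Naip1 and -0.79 to 0.19 for Naip6. Without Lactobacillus replicate 4 the log2 difference was -0.12 for Naip1, -0.095 for Naip6, -0.022 for Naip2 and 0.021 for Naip5. Without Klebsiella replicate 1 it was -0.10 for Naip1 and 0.043 for Naip5, without Lactobacillus replicate 1 it was -0.47 for Naip6, -0.23 for Naip2 and -0.15 for Naip5, and without Klebsiella replicate 2 or 3 it was -0.074 or -0.19 for Naip2. Without Klebsiella replicate 3 or 4 it was -0.11 for Naip5 in either case.

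Across the 8 libraries the Naip genes had pairwise Pearson r of 0.77 to 0.88, as a description over 6 pairs of genes that share libraries. Some pairs with other members lay in the same range, such as Nlrp6 with Naip1 (0.87), Naip1 with Casp1 (0.85) and Naip2 with Pycard (0.82). Over the 36 member pairs without Nlrc4, r was 0.23 to 0.88. Nlrc4, the partner of the Naip proteins, did not follow these members, with r of -0.65 to -0.11 against each of the other 9. For every 100 FPKM of summed Naip transcripts there were 16.5 ± 3.78 FPKM of Nlrc4 in Klebsiella and 11.8 ± 3.47 FPKM in Lactobacillus recipients (mean and SD of 4). The range was 12.3 to 19.9 in Klebsiella libraries and 8.97 to 16.6 in Lactobacillus libraries, and the groups overlapped. Within the summed Naip level, Naip1 made up 32.5% ± 3.59 in Klebsiella and 33.8% ± 1.61 in Lactobacillus recipients, and Naip5 17.4% ± 1.29 in Klebsiella recipients against 15.7% ± 1.43 in Lactobacillus recipients (SDs over 4 libraries).

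Reads of near-identical copies bear on the Naip values. Of the 150-base words in the annotated transcripts of Naip5, 8.25% also occurred in another Naip gene or in the pseudogene Naip3, and the share was 4.96% for Naip1, 1.89% for Naip6 and 0.537% for Naip2. Naip3 itself was at 3.35 to 7.86 FPKM. The sources used here do not say how reads that map to several genes were counted, so the Naip1 and Naip5 levels are the less certain of the 4. Casp1 and Casp4 shared 0 such words with each other or with Casp12.

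**Figure D3:**
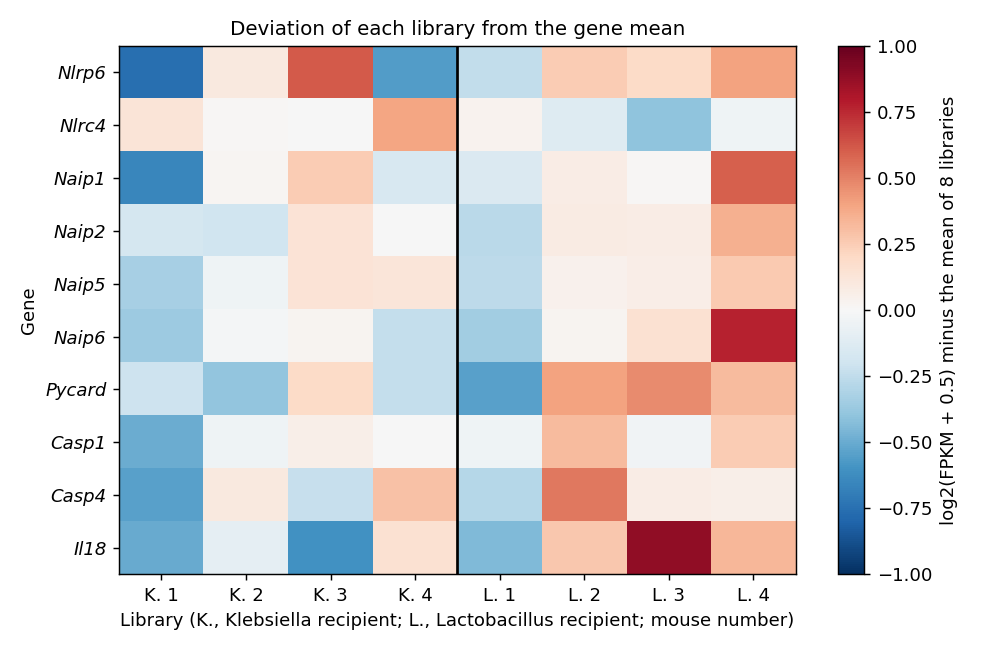
Deviation of log2(FPKM + 0.5) from each gene's mean over 8 libraries, with genes in rows and libraries in columns, Klebsiella recipients left of the black line and Lactobacillus recipients right of it. Klebsiella replicate 1 is low for most genes and Lactobacillus replicate 4 is above the mean for all but Nlrc4, while the row of Nlrc4 does not follow the others.

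Pycard (chr7:127989708-127993867, minus strand) encodes ASC, the adaptor that joins pyrin-domain sensors such as Nlrp6 to caspase-1. Its level was 26.4, 23.1, 35.1 and 25.9 FPKM in Klebsiella replicates 1 to 4, against 20.9, 40.7, 42.6 and 38.3 FPKM in Lactobacillus replicates 1 to 4. In Lactobacillus recipients 3 libraries were above every Klebsiella library and replicate 1 was below all of them. Its log2 difference came to -0.33 (SE 0.23, 95% interval -0.85 to 0.20, limma adjusted p 0.785; two-sided exact permutation p 0.343). Without Lactobacillus replicate 1 it was -0.56 (limma unadjusted p 0.00432, adjusted p 0.357). Ctrb1, a pancreatic protease gene, was at 418 FPKM in Klebsiella replicate 2 and 112 FPKM in Lactobacillus replicate 3, and at most 2.99 FPKM in the other libraries. Without these libraries the log2 difference of Pycard was -0.15 (limma adjusted p 0.985), and the part of pancreatic RNA in it was not tested further. The predicted gene Gm45205 on the opposite strand covers 12.8% of the exon bases of Pycard and was at most 0.462 FPKM.

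Casp1 (chr9:5298517-5307265, plus strand), the protease of the canonical inflammasome, had 61.9, 84.6, 90.9 and 87.0 FPKM in Klebsiella replicates 1 to 4, against 85.0, 109, 85.2 and 105 FPKM in Lactobacillus replicates 1 to 4. Klebsiella replicate 1 stood low and Lactobacillus replicates 2 and 4 high, while the other 5 libraries lay between 84.6 and 90.9 FPKM. A log2 difference of -0.25 was found (SE 0.14, 95% interval -0.57 to 0.076, limma adjusted p 0.774; two-sided exact permutation p 0.229). It was -0.12 without Klebsiella replicate 1 and -0.51 with log2 Hoxd13 as a covariate (limma adjusted p 0.466).

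Casp4 (chr9:5308828-5336783, plus strand) encodes the mouse caspase that binds cytosolic lipopolysaccharide, also called caspase-11. It had 15.004, 23.6, 18.8 and 27.2 FPKM in Klebsiella replicates 1 to 4, against 18.1, 32.1, 23.3 and 23.02 FPKM in Lactobacillus replicates 1 to 4. The groups were interleaved, and the values rest on 247 to 662 reads, the fewest among the 10 genes. The log2 difference was -0.19 (SE 0.22, 95% interval -0.68 to 0.30, limma adjusted p 0.855; two-sided exact permutation p 0.486), and -0.0016 without the libraries with high Hoxb6. It was -0.042 without Klebsiella replicate 1 and -0.046 without Lactobacillus replicate 2, but -0.32 without Klebsiella replicate 4 and also -0.32 without Lactobacillus replicate 1. Lactobacillus replicate 2, the highest library for Casp1 and Casp4, also had the highest sum of the 5 T cell markers, at 23.5 FPKM against 9.28 to 12.1 FPKM in the others, and of the macrophage markers, at 245 FPKM. The mean log2 level of the T cell markers had a Pearson r over 8 libraries of 0.62 with Casp1 and 0.64 with Casp4. That of the 5 smooth muscle markers had an r of -0.68 with Casp4. It was -0.60 with Il18 and -0.27 to 0.35 with the other members. Of these 5 markers 0 had a log2 difference below 0. Their sum was highest in Klebsiella replicate 3, at 3531 FPKM, and lowest in Klebsiella replicate 4. The part of T cells, macrophages or muscle in these values was not tested. The 2 caspase genes are neighbours on chromosome 9, and their Pearson r over the 8 libraries was 0.75.

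Il18 (chr9:50554827-50581840, plus strand) had the difference farthest from 0 of the 10 genes, and its highest library was 2.83 times its lowest. Its SD within groups on the log2 scale was 0.46, beside 0.48 for Nlrp6. Its level was 78.7, 105, 73.2 and 124 FPKM in Klebsiella replicates 1 to 4, against 82.2, 135, 207 and 141 FPKM in Lactobacillus replicates 1 to 4. In Lactobacillus recipients 3 libraries were above every Klebsiella library and replicate 1 was not, and a Klebsiella library was below a Lactobacillus library in 14 of the 16 pairs. Klebsiella minus Lactobacillus gave a log2 difference of -0.53 (SE 0.27, 95% interval -1.15 to 0.095, limma adjusted p 0.774; two-sided exact permutation p 0.143), a fold of 0.695. It was -0.76 without Lactobacillus replicate 1 (limma unadjusted p 0.00939, adjusted p 0.376) and -0.32 without Lactobacillus replicate 3. Without the libraries with high Ctrb1 the log2 difference of Il18 was -0.38 (limma adjusted p 0.984), and the part of pancreatic RNA in it was not tested further. The gene overlaps Bco2 and Tex12 on the opposite strand but shares 0 exon bases with them.

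The Pearson r of Il18 with Casp1 over the 8 libraries was 0.43. The ratio of Il18 to Casp1 FPKM was 1.27, 1.24, 0.806 and 1.43 in Klebsiella replicates 1 to 4, against 0.967, 1.24, 2.43 and 1.35 in Lactobacillus replicates 1 to 4. Lactobacillus replicate 3 stood above the rest, and the other 7 libraries lay between 0.806 and 1.43. Cd14, a co-receptor for lipopolysaccharide among the macrophage markers, had the highest Pearson r with Il18 of the fixed markers, 0.82 over 8 libraries. The 8 macrophage markers summed to 150 to 183 FPKM in Klebsiella libraries and 159 to 245 FPKM in Lactobacillus libraries, and their mean log2 level had an r of 0.070 with Il18.

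**Figure D4:**
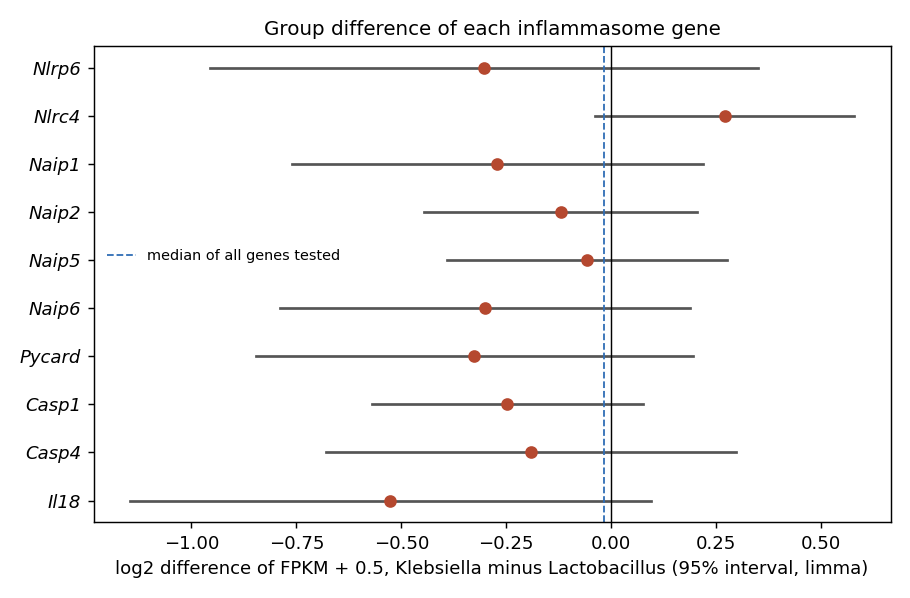
Log2 difference of FPKM + 0.5 for each of the 10 genes, Klebsiella minus Lactobacillus, with limma's 95% interval, and the median of all 16865 genes tested as a dashed line. Every interval includes 0, and Nlrc4 alone has its point right of 0.

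Single libraries stood out across members. Klebsiella replicate 1 was the lowest of the 8 libraries for 6 genes, Nlrp6, Naip1, Naip5, Naip6, Casp1 and Casp4. It was also lowest in the surface colonocyte keratin Krt20, at 66.3 FPKM against 99.1 to 243 FPKM elsewhere, and in the chloride exchanger Slc26a3, at 97.7 FPKM. The same library was highest in the keratins Krt8, Krt18 and Krt19, at 2928, 488 and 3152 FPKM, and in the epithelial sum, at 8963 FPKM. The colon markers Car1 and Aqp8 were lowest in other libraries. Lactobacillus replicate 4, highest for the 4 Naip genes, was highest in Slc26a3, at 630 FPKM, and in the 5 fat markers, whose sum was 233 FPKM there. The fat sums did not overlap between the groups, at 1.83 to 19.2 FPKM in Klebsiella and 24.4 to 233 FPKM in Lactobacillus libraries, all 4 tested fat markers had differences below 0, and their mean log2 level had an r of 0.78 with Naip6, 0.76 with Naip1, 0.68 with Casp1, 0.63 with Il18 and -0.38 to 0.59 with the other 6 members; the part of fat in the members' values was not tested. The Pearson r with Slc26a3 over 8 libraries was 0.85 for Naip1 and 0.74 for Naip6.

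The mean log2 level of the 8 epithelial markers had a Pearson r over 8 libraries of -0.92 with Pycard, -0.83 with Naip2 and -0.76 with Naip6. It was -0.61 to -0.26 with Nlrp6, Naip1, Naip5, Casp1, Casp4 and Il18, and 0.64 with Nlrc4. The single markers did not all run alike. Krt8 was at 2928 FPKM in Klebsiella replicate 1 and 1857 FPKM in Lactobacillus replicate 4, and its Pearson r over 8 libraries was -0.94 with Naip1, -0.92 with Nlrp6, -0.85 with Casp1 and 0.46 with Nlrc4. Against Naip1, Krt18 and Krt19 had r of -0.81 and -0.92, Cldn7 of -0.69, Vil1 of -0.64, Epcam of -0.29, Cdh1 of 0.13 and Krt20 of 0.65. With the mean log2 level of the 8 epithelial markers as a covariate, the log2 differences of 5 genes turned positive, at 0.070 for Nlrp6, 0.14 for Naip2, 0.12 for Naip5, 0.049 for Naip6 and 0.17 for Pycard, and 0 of 10 were called. Of the 8 markers 2 had a log2 difference below 0, while Krt18 and Vil1 had 0.62 and 0.27. The covariate is thus partly tied to the group, and values with it cannot separate epithelial content from recipient.

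The genes most like a member over the 8 libraries were taken from 10057 genes with a mean of at least 5 FPKM, and so many genes give high values by search alone. For Nlrp6 they were Gucd1 (Pearson r 0.98), Hoxa7, a homeobox gene (0.98), and Fbxl18 (0.98), and 189 genes had an r above 0.9. For Casp1 they were Rnf121 (0.98), Rrnad1 (0.98) and Trim21, an antibody-binding ubiquitin ligase (0.97). For Casp4 they were Idnk (0.93), the antibody segment Ighv1-55 (0.92) and Slc51b, a bile acid exporter subunit (0.92). For Il18 they included Snhg5 (0.95) and Smc6, of the SMC5/6 complex (0.94), and 6 genes had an r above 0.9.

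The rest of the pathway was read from 65 genes in 6 lists, of which 53 passed the filter. None was called in either direction with limma (0 higher, 0 lower, smallest adjusted p 0.774), beside 0% of all genes tested, and voom also called 0. An unadjusted limma p under 0.05 was seen for 3 of the 53, beside 6.07% of all genes. Of the differences 27 were above 0 and 26 below, beside 53.6% below 0 over all genes. Among the other sensors 0 of 8 were called. Nlrp9b, a sensor of viral RNA in the mouse gut epithelium, was at 12.1 ± 4.70 FPKM in Klebsiella and 17.9 ± 8.03 FPKM in Lactobacillus recipients (mean and SD of 4), and like most members it was lowest in Klebsiella replicate 1 (5.80 FPKM) and, like the Naip genes, highest in Lactobacillus replicate 4 (29.5 FPKM). Aim2, which binds cytosolic DNA, was at 53.0 ± 5.08 FPKM in Klebsiella and 63.1 ± 14.7 FPKM in Lactobacillus recipients, well above Nlrp3, which stayed at 0.241 to 0.761 FPKM. Nlrx1, a mitochondrial member of the family, and Nod2, a sensor of bacterial peptidoglycan fragments, had log2 differences of -0.24 and 0.37.

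Among other caspases, adaptors and regulators 0 of 12 were called. Dhx33 and Dhx15, RNA helicases linked to Nlrp3 and Nlrp6 signalling, had log2 differences of 0.22 and 0.23, and Tifa, an adaptor for bacterial heptose sensing, of -0.52. Of the gasdermins, the pore-forming substrates, 0 of 6 were called. Gsdmc3 was at 77.9 ± 18.3 FPKM in Klebsiella and 112 ± 14.1 FPKM in Lactobacillus recipients (log2 difference -0.53, limma unadjusted p 0.00960, adjusted p 0.774). Gsdmd, the caspase-1 substrate, was at 44.0 ± 3.09 FPKM in Klebsiella and 50.4 ± 7.54 FPKM in Lactobacillus recipients, and the log2 differences of Gsdmc2 and Gsdme were -0.19 and 0.19.

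In the interleukin-1 family 0 of 6 were called. Il1b, the other cytokine that caspase-1 releases, measured 5.88, 14.1, 1.97 and 13.6 FPKM in Klebsiella replicates 1 to 4, against 5.41, 3.63, 0.917 and 3.18 FPKM in Lactobacillus replicates 1 to 4 (log2 difference 1.17, limma adjusted p 0.774). Klebsiella replicates 2 and 4 stood high and the groups overlapped, while for Il18 the sign was the opposite. The receptor gene Il1r1 was at 13.0 ± 0.641 FPKM in Klebsiella and 10.9 ± 1.08 FPKM in Lactobacillus recipients (log2 difference 0.25, limma unadjusted p 0.0361, adjusted p 0.774). Its groups did not overlap, beside 2.99% of all genes. Of the other list genes named here, Dhx33 and Traf6 did not overlap either, both higher in Klebsiella recipients. These genes were named for their small p in each list, so they give neither a share nor a direction for the lists. Il1rn, the receptor antagonist, had a log2 difference of 0.43 and the decoy receptor Il1r2 of -0.20.

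Transcripts of the interleukin-18 receptor were low, while the signalling gene Irak1 averaged 45.4 FPKM in Klebsiella and 45.1 FPKM in Lactobacillus recipients. The receptor chains Il18r1 and Il18rap averaged 0.963 and 0.664 FPKM in Klebsiella recipients and 1.23 and 0.555 FPKM in Lactobacillus recipients, and Il18bp, the soluble inhibitor, 4.35 and 3.70 FPKM in Klebsiella and Lactobacillus recipients. Of this list 0 of 10 tested genes were called; the named ones were Myd88 and Traf6, signalling proteins with log2 differences of 0.20 and 0.18, Il22ra1 at -0.34 and Il18rap at 0.15. Ifng, the cytokine that interleukin-18 induces in lymphocytes, was below the filter, at 0.0347 FPKM on average in Klebsiella and 0.0693 FPKM in Lactobacillus recipients. Il22 was also below the filter, at 0.958 FPKM on average in Klebsiella and 0.0254 FPKM in Lactobacillus recipients. Its highest library was Klebsiella replicate 4, at 3.32 FPKM. Among transcription factors and interferon-induced GTPases 0 of 11 were called. Irf8, which drives Naip expression in mouse myeloid cells, Irf1 and Irf2 had log2 differences of -0.17, -0.39 and -0.30, and Gbp5 of 0.29. Irf1 was lowest in Klebsiella replicate 1, at 32.8 FPKM, and highest in Lactobacillus replicate 4, at 110 FPKM.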

How the data were processed

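The labels describe Trizol RNA of frozen mouse intestine and Illumina TruSeq libraries. HTSeq (0.6.0), STAR (2.5.1b), DESeq2 (1.10.1) and CASAVA are listed in the submitters' processing notes, without their roles. The sources used here name no genome build, annotation or strand setting. The deposited table, made by the authors, holds FPKM for 49585 identifiers, of which 49326 were given symbols from GENCODE M21 (GRCm38). Tables of mapping classes and of 15 genes of the authors' choice were not used.

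The 16865 genes averaging at least 0.5 FPKM were fitted, on log2(FPKM + 0.5), with limma 3.58.1 in R 4.3.3 (variance trend, two-sided, Benjamini-Hochberg over all genes), Klebsiella minus Lactobacillus, after a trial on simulated data. Exact permutation tests used all 70 assignments of 4 against 4 (smallest p 0.0286). Whole reads were recovered from the steps in FPKM for 26962 of 26963 genes, within 1e-09, and came to 15375480 to 20953595 per library. Read ranges given for a gene show counting depth only, and p-values measure the spread between mice.

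The members, the lists and the alternatives were chosen with earlier results of these data known. All 10 members were named, with the 4 genes of smallest p in each list and the 3 genes most like Nlrp6, Casp1, Casp4 and Il18, except 2 genes that are not reported here. Nlrp3, Il18r1, Il18bp, Ifng, Il22, Irak1 and the single markers and ratios named were chosen after their values were seen, as were the shared promoter runs. Other steps ran in Python 3.11.15 (numpy 2.4.6, pandas 2.3.3, matplotlib 3.10.9).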

Additional observations from a re-analysis of the deposited data

How the results depend on the processing

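Each of 21 alternatives gave 0 called genes among the members, the pathway lists and all genes tested, and the smallest adjusted p of any gene under an alternative was 0.250. Of 210 member values, 203 kept their sign. The 7 that did not included the 5 with the epithelial marker level as a covariate, which is partly tied to the group. These were 0.070 for Nlrp6, 0.14 for Naip2, 0.12 for Naip5, 0.049 for Naip6 and 0.17 for Pycard. The others were Naip5 without Klebsiella replicate 1 or Lactobacillus replicate 4, where leaving out each library gave -0.15 to 0.043. The cause of these changes of sign was not tested. Leaving out each library gave -0.76 to -0.32 for Il18, -0.56 to -0.10 for Nlrp6, -0.56 to -0.22 for Pycard, 0.18 to 0.33 for Nlrc4, -0.31 to -0.12 for Casp1, -0.32 to -0.042 for Casp4, -0.40 to -0.10 for Naip1, -0.23 to -0.022 for Naip2 and -0.47 to -0.095 for Naip6. Rescaling (constant total, median-of-ratios), other pseudocounts or filters and array weights turned no sign. The smallest member adjusted p was 0.357, for Pycard without Lactobacillus replicate 1.

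The mouse numbers did not pair the libraries: same-numbered deviations from the group means had correlations of 0.19, -0.10, -0.059 and -0.16. With the mouse number as a block 0 members, 0 pathway genes and 0 genes in all were called, and Il18 had a log2 difference of -0.53. With 4 libraries a group and SDs on the log2 scale of 0.19 to 0.48 within groups, differences of the size seen here could not be told from spread.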
